A study of Bos taurus with 6 samples.

Results

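The endoplasmic reticulum (ER) genes described here are a list of 44, made of chaperones, disulfide enzymes, the sensors and transcription factors of the unfolded protein response, the machinery of ER-associated degradation, and the translocon with its signal peptidase and oligosaccharyltransferase. They were found by gene symbol among the array's probes. A symbol was matched for 43 of the 44, through 64 probes, and 41 genes had at least 1 probe bright enough to be tested, out of 9930 genes tested in all. ATF6, the membrane-bound sensor that is cut to release a transcription factor, is not among the symbols matched and was not analysed here. ERN1, the sensor kinase and nuclease better known as IRE1, was above background in 1 of 6 readings of long FSH cows and 0 of 6 of conventional FSH cows. PPP1R15A, the phosphatase partner that restores translation after stress, was above background in 2 of 6 readings of long FSH cows and 0 of 6 of conventional FSH cows. Neither was tested.

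Proteins bound for secretion or for membranes enter the ER through the translocon, lose their signal peptide, receive sugar chains and fold with the help of chaperones and disulfide enzymes. When unfolded proteins pile up, the sensors ATF6, ERN1 and EIF2AK3 slow translation and switch on genes for chaperones and for degradation, a programme known as the unfolded protein response. Granulosa cells, which line the ovarian follicle, secrete inhibins, activins and matrix proteins through this route, and after the LH surge they change from estradiol to progesterone production.

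RNA came from granulosa cells of beef cows that had calved more than once. Every cow had its follicles ablated to start a new follicular wave, then received FSH at intervals of 12 h, prostaglandin F2α and LH, and its ovaries were removed 24 h after LH. Long FSH cows received FSH for 7 days and conventional FSH cows for 4 days, with 6 cows treated per group, of which 3 per group were put on arrays. The groups therefore differ in the age of the follicular wave as well as in the duration of FSH. They also differ in the number of FSH doses and in the time under an intravaginal progesterone device. By the study's methods, every cow received that device at ablation and kept it until its prostaglandin treatment. For each cow, equal amounts of RNA from its largest follicles were pooled and amplified, so a value describes a cow and not a follicle. A cow of each group shared an array, and the same RNA was hybridised again with the dyes exchanged, which gave 6 arrays and n = 3 cow pairs.

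Values are log2 ratios of normalized intensity, long FSH over conventional FSH, and a ratio is the mean of the 2 arrays of a pair. The direction of every ratio is likely rather than settled. In the sample labels the groups carry the opposite dyes to those in the series' own design description, and the ratios were turned by that description, which the study's legends follow too. With the sign turned, every gene called lower below would be higher and every higher one lower. A level is the log2 normalized intensity of a cow, and levels are compared between cows, never between genes. The study's threshold means an unadjusted P of 0.05 or less together with at least a 2-fold difference. Adjusted p are Benjamini-Hochberg values from limma over all 9930 genes.

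Per array and dye, 41.8% to 51.4% of probes were above background. The swapped arrays of a pair correlated over tested probes with r = 0.43 in pair 1, 0.65 in pair 2 and 0.24 in pair 3, so the arrays of pair 3 agreed least. Of the granulosa markers, 7 of 10 were tested, with mean levels of 10.52 to 11.64 in long FSH cows and 11.20 to 12.13 in conventional FSH cows, while FOXL2, NR5A1 and HSD17B1 were not above background. The median ratio of these 7 markers was -0.65, with -0.61, -0.58 and -0.72 in pairs 1 to 3, and INHBA and CYP19A1 passed the study's threshold as lower and NR5A2 as higher. Of 12 leukocyte markers, 10 were tested, and their median log2 ratio was 0.74, with 0.50, 0.27 and 1.54 in pairs 1 to 3. Their mean level was 7.46 to 9.27 in long FSH cows and 7.14 to 7.50 in conventional FSH cows. TYROBP and CD53 passed the study's threshold as higher. However, TYROBP, CD74, LAPTM5, CD14, FCER1G and CORO1A reached the minimum of 3 readings above background only in long FSH cows. The granulosa marker AMH and the endothelial markers KDR and CLDN5 reached it only in conventional FSH cows. The sign of the ratios of all these markers, and so of the leukocyte median, is partly set by the filter. CYP17A1 of the theca markers, and HBB, HBA and ALAS2 of the red blood cell markers, were not above background. For theca cells INSL3, DCN and COL1A2 were tested. SLC4A1, the tested red blood cell marker, had a ratio of -0.27, with -0.39, -0.48 and 0.07 in pairs 1 to 3. The median ratio was -0.01 over 3 theca markers, -0.04 over 2 plasma cell markers and -0.26 over 4 endothelial markers that could be tested. Of these, the theca marker DCN passed the study's threshold as lower, at -1.20, with its lowest ratio, -2.64, in pair 2. In pooled cells, fewer cells of a type and less RNA per cell cannot be told apart, and the part of these markers' cell types in the results below was not tested.

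The chaperone genes HSPA5, HSP90B1, CALR and MANF and the glycosylation gene DDOST were lower in long FSH cows at the study's threshold, by 2.14-fold to 3.89-fold, and no gene of the list was higher. These were 5 of 41 tested, where 2.02% of all genes were called lower and 3.39% higher. No member and 0% of all genes passed an adjusted p of 0.05 in limma. The smallest adjusted p among the members was 0.140, for HSP90B1, and 8 members had an unadjusted p of 0.05 or less, as had 1158 of the 9930 genes. The remaining 36 tested members did not pass.

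Below the threshold the ratios leaned the same way. Of the 41 tested members, 39 had a mean log2 ratio below 0, the exceptions being PDIA4 and EDEM1, while 4688 of all 9930 genes were below 0. The median over the tested members was -0.47, against 0.03 over all genes. In 18 members (43.9%) the ratio was below 0 in all 3 cow pairs, as in 17.2% of all genes, and in no member was it above 0 in all 3 pairs. In 10 members every long FSH cow had a lower level than every conventional FSH cow, a pattern that 6.25% of all genes showed, and in no member was every long FSH cow higher. Of the tested members, 34 were above background in all 12 readings, and these had a median of -0.53, with 15 below 0 in all pairs and 9 without overlap between the groups. Of the other 7, CRELD2, HYOU1, SDF2L1 and ERO1LB reached the minimum of 3 readings only in conventional FSH cows and PDIA4 only in long FSH cows, so the sign of their ratios is partly set by the filter. The tested members were bright, with 31 above the median intensity of all genes.

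**Figure D1:**
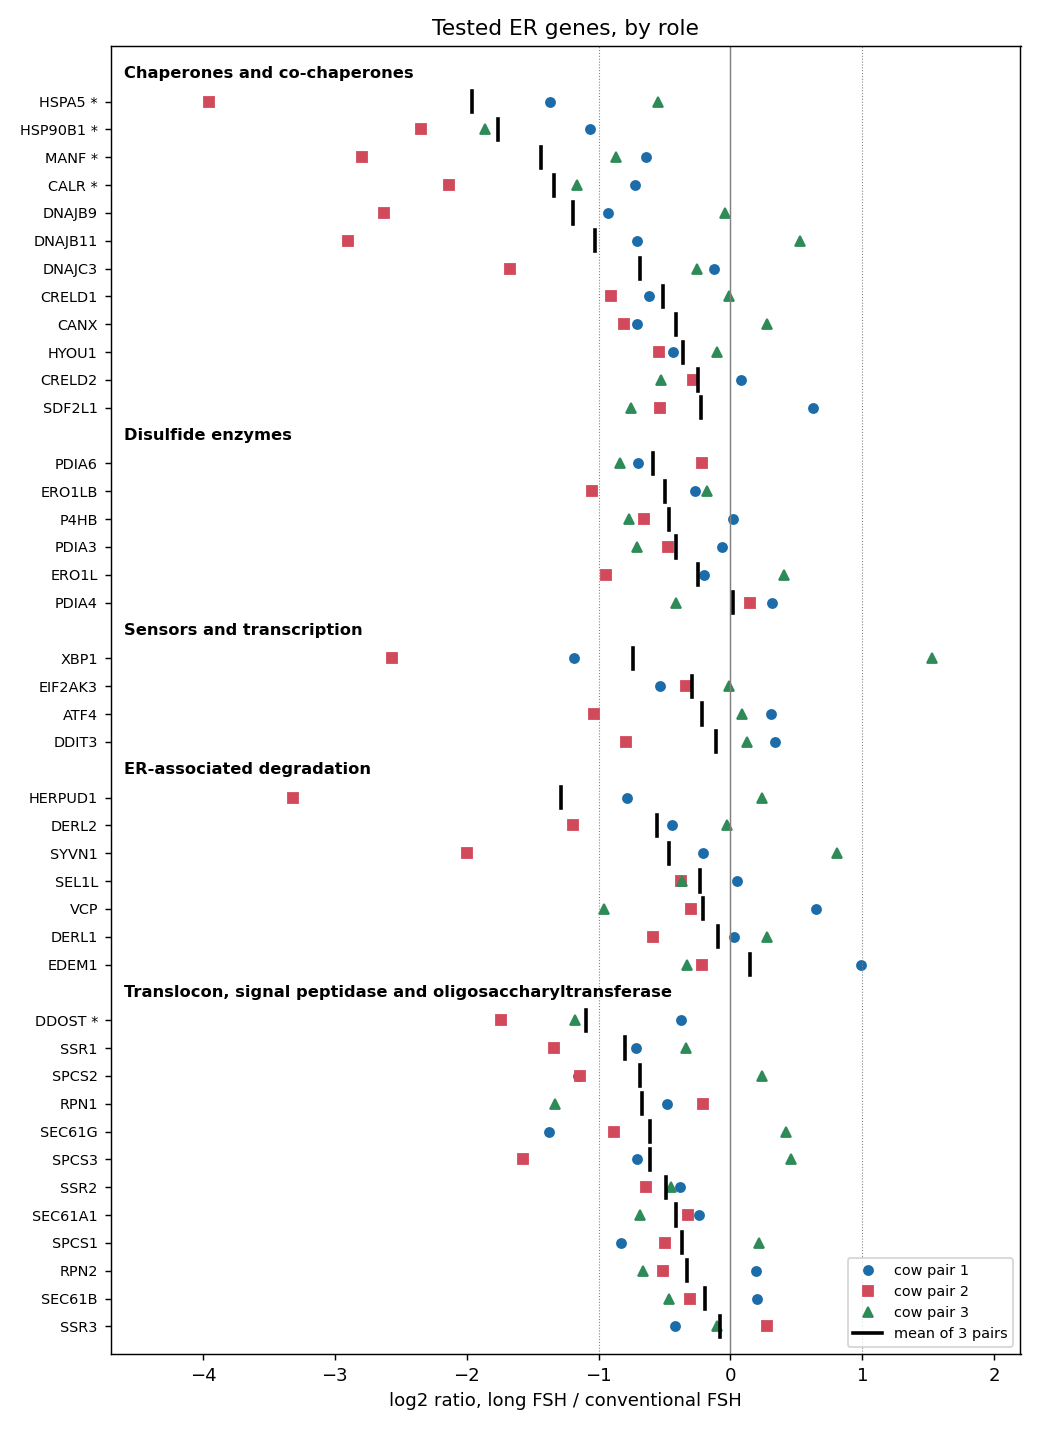
Log2 ratios (x axis, long FSH over conventional FSH) of the 41 tested genes, grouped by role, with a symbol per cow pair (blue circle, pair 1; red square, pair 2; green triangle, pair 3) and a black bar for the mean of the 3 pairs. Dotted lines mark a 2-fold difference and stars mark the 5 genes past the study's threshold. Most bars lie left of 0, and the red squares of pair 2 reach furthest left.

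The cow pairs did not contribute equally. The median over the members was -0.42 in pair 1, -0.80 in pair 2 and -0.25 in pair 3, while the median over all genes was 0.02, 0.04 and -0.00. Members below 0 numbered 29 of 41 in pair 1, 39 in pair 2 and 28 in pair 3. Of all 9930 genes, 4835 were below 0 in pair 1, 4697 in pair 2 and 4989 in pair 3. Pair 2 gave the lowest of the 3 ratios for 24 members, pair 3 for 12 and pair 1 for 5, where pair 2 gave the lowest ratio for 31.4% of all genes.

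The highest levels often belonged to a particular animal. The conventional FSH cow of pair 2 had the highest level of the 6 cows in 27 of the 41 members, and in 19.7% of all genes. It was highest in 11 of 12 chaperones and in all 4 tested sensor and transcription genes, but in 5 of 12 translocon, signal peptidase and oligosaccharyltransferase genes. The median SD of a member between cows was 0.29 in the long FSH group and 0.48 in the conventional FSH group, and over all genes it was 0.29 in the long FSH group and 0.35 in the conventional FSH group. Without pair 2 only HSP90B1 was called, where 183 of all 9930 genes were called lower. Without pair 1 there were 4 calls among 187 lower genes, and without pair 3 there were 13 among 397, in place of 5 among 201 with all pairs.

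**Figure D2:**
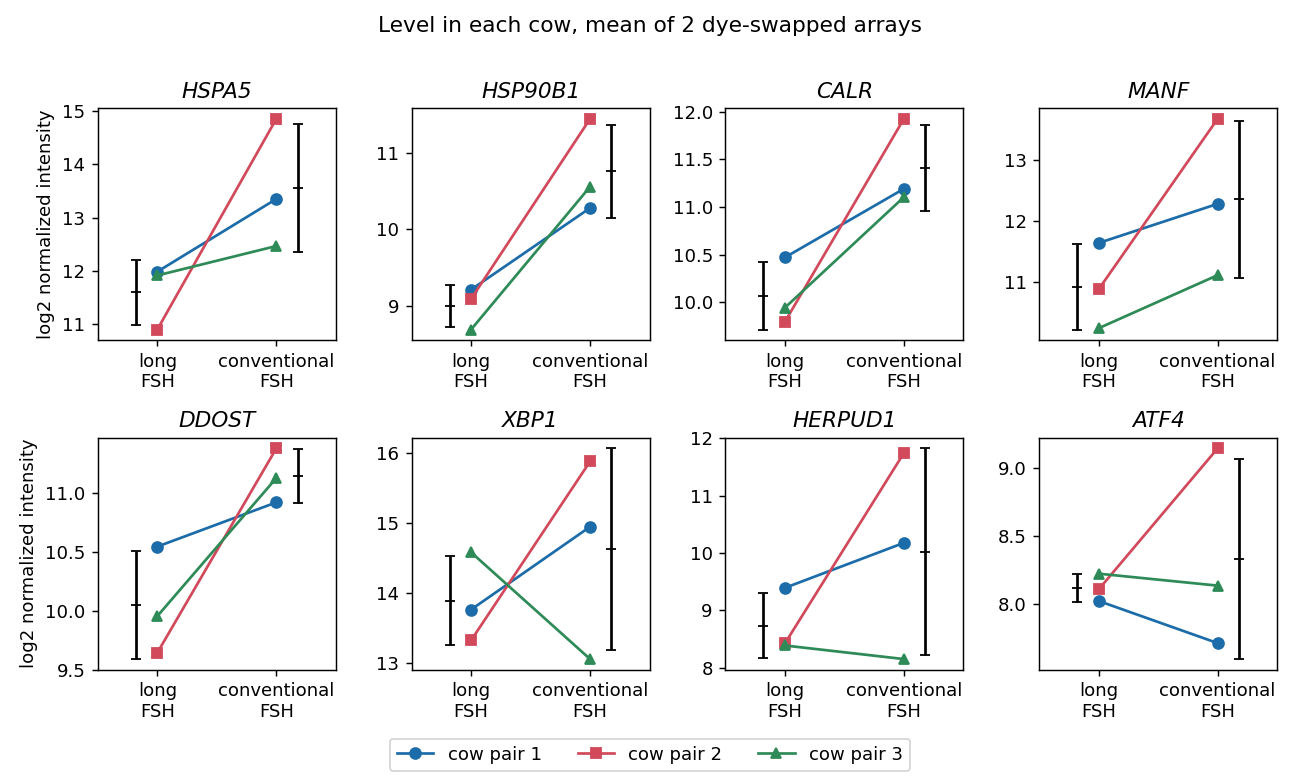
Log2 normalized intensity (y axis, scaled per gene) of 8 genes in each long FSH cow (left) and conventional FSH cow (right), with lines joining the cows of a pair, coloured by pair, and black bars for the mean and SD of 3 cows. All lines of HSPA5, HSP90B1, CALR, MANF and DDOST climb to the right, while XBP1, HERPUD1 and ATF4 have lines in both directions, and the conventional FSH cow of pair 2 is the highest point in every panel.

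Of the 12 chaperones and co-chaperones, 4 passed the threshold as lower, and the median of the group was -0.85, with quartiles of -1.36 and -0.40. The 9 chaperones above background in all readings were all below 0 on average, and 7 of them were below 0 in all pairs. The median of the 12 was -0.67 in pair 1, -1.90 in pair 2 and -0.39 in pair 3. It was the lowest of the 5 role groups with all pairs but not without pair 2, where it was -0.29, against -0.30 for the disulfide enzymes and -0.44 for the translocon group. Differences between role groups were not tested.

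HSPA5, also called BiP, is the abundant HSP70 chaperone of the ER lumen and keeps the sensors inactive while it is bound to them. Its level was 11.98, 10.90 and 11.91 in the long FSH cows of pairs 1, 2 and 3, against 13.35, 14.85 and 12.46 in the conventional FSH cows. Every long FSH cow lay below every conventional FSH cow, and pair 2 was the furthest apart. The mean log2 ratio was -1.96 ± 1.78 (SD, n = 3 pairs), a 3.89-fold lower level, with a 95% interval of -3.56 to -0.35 and an adjusted p of 0.354 in limma. This ratio ranked 33 from the lowest of the 9930 genes. The call was lost at -2.25 without pair 1, at -0.96 without pair 2, and with the deposited ratios.

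HSP90B1, also called GRP94, is the HSP90 chaperone of the ER and folds integrins and other secreted or membrane proteins. Its level was 9.21, 9.09 and 8.69 in long FSH cows, against 10.28, 11.44 and 10.56 in conventional FSH cows, with no overlap. The log2 ratios were -1.07, -2.35 and -1.86 in pairs 1 to 3, a mean of -1.76 ± 0.65 (SD, n = 3 pairs; limma's adjusted p 0.140), or 3.39-fold. A dimmer probe of the gene, above background in 1 of 6 long FSH readings and 5 of 6 conventional FSH readings, gave -0.74. HSP90B1 kept its call in every alternative run, with ratios from -2.11 to -1.25.

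CALR encodes calreticulin, which binds calcium and the sugar chains of new glycoproteins. Its level was 10.47, 9.79 and 9.94 in long FSH cows, against 11.19, 11.93 and 11.10 in conventional FSH cows. The groups did not overlap, and the mean ratio was -1.34 ± 0.72 (SD, n = 3 pairs; limma's adjusted p 0.226), 2.53-fold. Without pair 2 it was -0.94 and not called. CANX, the membrane-bound relative calnexin that serves the same glycoproteins, had a level of 11.64, 11.57 and 12.27 in long FSH cows, against 12.35, 12.37 and 11.99 in conventional FSH cows. Its ratio was -0.71, -0.80 and 0.28 in pairs 1 to 3, a mean of -0.41 ± 0.60 (SD, n = 3 pairs), which did not pass. The other probes of CANX gave -0.62 and -0.26.

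MANF, a small secreted and ER-resident protein that is induced by ER stress, had a level of 11.64, 10.88 and 10.24 in long FSH cows, against 12.28, 13.68 and 11.11 in conventional FSH cows. The groups overlapped, since the long FSH cow of pair 1 was above the conventional FSH cow of pair 3, although each long FSH cow was below the cow it shared arrays with. The ratio was -1.44 ± 1.18 (SD, n = 3 pairs; limma's adjusted p 0.331), 2.70-fold. The call was lost when the pairing was dropped and the cows were compared 3 against 3, with the deposited ratios, and at -0.76 without pair 2.

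The J-domain co-chaperones stand next to HSPA5 in function, because they present clients to it and drive its ATP cycle. DNAJB9, also known as ERdj4, had log2 ratios of -0.93, -2.62 and -0.04 in pairs 1 to 3, and its mean of -1.20 ± 1.31 (SD, n = 3 pairs) missed the P limit, although it passed with single-channel quantile normalization and with either other filter on dim probes. DNAJB11, or ERdj3, had ratios of -0.71, -2.90 and 0.53. DNAJC3, or p58IPK, which also restrains EIF2AK3, had ratios of -0.12, -1.67 and -0.25. All 3 genes were lowest in pair 2 and between -0.25 and 0.53 in pair 3. The remaining chaperones were CRELD1 at -0.51, HYOU1 at -0.36, CRELD2 at -0.24 and SDF2L1 at -0.22, and the last 3 of these were above background in only 1 or 2 of 6 long FSH readings. HYOU1, a large HSP70 relative of the ER, had levels close to background, at 6.75, 6.67 and 7.04 in long FSH cows against 7.19, 7.21 and 7.15 in conventional FSH cows.

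**Figure D3:**
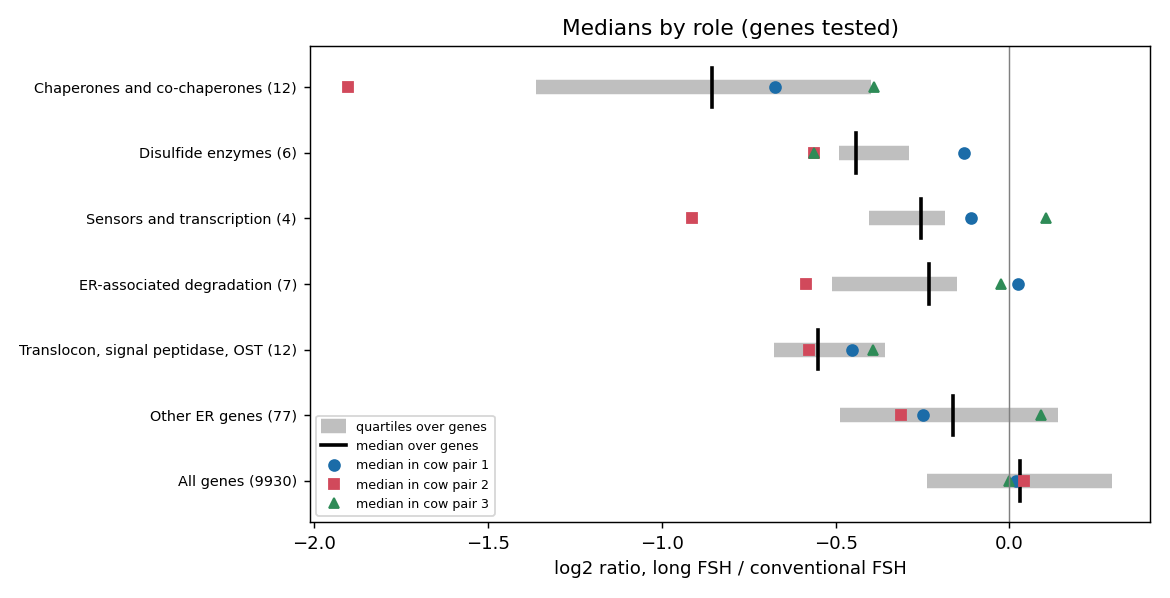
Median log2 ratio (x axis, long FSH over conventional FSH) of each role group, of the other ER genes and of all genes, with the number of genes tested in brackets. Black bars are medians of the gene means, grey bands run between the quartiles over genes, and coloured symbols are medians in each cow pair. Chaperones lie furthest left, at -0.85 with all pairs and -0.29 without pair 2, where the translocon group is at -0.44, and the sensors and the degradation genes lie near -0.25 with pairs 1 and 3 close to 0.

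Disulfide enzymes, which form and rearrange the bonds between cysteines, had a median of -0.44, and 0 of 6 passed the threshold. Their median was -0.13 in pair 1, -0.56 in pair 2 and -0.56 in pair 3, so pair 2 did not stand apart here as it did for chaperones. PDIA6 is a protein disulfide isomerase that also binds HSPA5. Its level was 14.91, 15.18 and 14.89 in long FSH cows, against 15.62, 15.40 and 15.73 in conventional FSH cows, without overlap. Its mean ratio of -0.59 ± 0.33 (SD, n = 3 pairs; limma's adjusted p 0.406) fell short of 2-fold. The ratio of this very bright probe depended on the dye, at 0.13, 0.73 and 0.25 on the arrays with long FSH RNA in Cy5 and -1.54, -1.16 and -1.92 on the arrays with it in Cy3. Another probe of PDIA6 gave -1.15, with -0.82, -1.57 and -1.07 in pairs 1 to 3 and an unadjusted P of 0.00306 in limma. That probe alone would pass the study's threshold as lower. The last probe gave -0.31.

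PDIA3, the isomerase that works with calreticulin and calnexin, had a level of 9.64, 9.47 and 9.03 in long FSH cows, against 9.71, 9.94 and 9.74 in conventional FSH cows. The groups did not overlap, and the mean ratio was -0.41 ± 0.33 (SD, n = 3 pairs). This ratio too depended on the dye. In pairs 1 to 3 it was -0.66, -1.06 and -1.04 with long FSH RNA in Cy5, but 0.54, 0.12 and -0.38 with it in Cy3. P4HB, the founding protein disulfide isomerase, had ratios of 0.02, -0.66 and -0.77, a mean of -0.47 ± 0.42. The oxidases that recharge these isomerases gave -0.25 ± 0.68 for ERO1L (now ERO1A) and -0.50 ± 0.48 for ERO1LB. PDIA4 was close to background, above it in 3 of 6 long FSH readings and 2 of 6 conventional FSH readings, and had a ratio of 0.02 ± 0.38 with a 95% interval of -0.56 to 0.60.

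None of the 4 tested sensor and transcription genes passed the threshold, and their median was -0.25. XBP1 encodes the transcription factor whose mRNA is spliced by ERN1 to make the active form. Whether its probe tells the spliced from the unspliced mRNA was not examined here. Its level was 13.76, 13.32 and 14.58 in long FSH cows, against 14.95, 15.88 and 13.05 in conventional FSH cows. The ratios of -1.19, -2.56 and 1.53 thus took opposite signs between pairs, each with the same sign on both arrays of its pair, and the mean was -0.74 ± 2.08 (SD, n = 3 pairs). Without pair 2 the mean turned to 0.17, and without pair 3 XBP1 passed the threshold at -1.88.

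EIF2AK3, the sensor kinase PERK that halts translation, had a level of 8.38, 8.85 and 7.62 in long FSH cows, against 8.91, 9.19 and 7.63 in conventional FSH cows. Its mean ratio was -0.29 ± 0.26 (SD, n = 3 pairs). ATF4, the transcription factor translated when EIF2AK3 is active, had ratios of 0.31, -1.04 and 0.09. DDIT3, also called CHOP, a target of ATF4 linked to cell death, had ratios of 0.34, -0.79 and 0.13. Both ATF4 and DDIT3 were thus below 0 in pair 2 alone, and without pair 2 the median of the 4 genes was 0.18.

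ER-associated degradation returns misfolded proteins to the cytosol for the proteasome. Its 7 genes had a median of -0.23, and none passed the threshold. The median was 0.02 in pair 1, -0.59 in pair 2 and -0.03 in pair 3. HERPUD1, a stress-induced membrane protein of the degradation complex, had a level of 9.39, 8.42 and 8.39 in long FSH cows, against 10.18, 11.74 and 8.15 in conventional FSH cows. Its ratios were -0.78, -3.32 and 0.24, and the mean of -1.29 ± 1.83 (SD, n = 3 pairs; limma's adjusted p 0.488) did not pass although it exceeded 2-fold. SYVN1, the ubiquitin ligase at the centre of the complex, had a level of 10.93, 10.75 and 11.51 in long FSH cows, against 11.14, 12.74 and 10.71 in conventional FSH cows. HERPUD1 and SYVN1, like DNAJB11 and XBP1, had their lowest ratio in pair 2 and a ratio above 0 in pair 3.

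The other degradation genes varied less between pairs. DERL2, a channel component, had ratios of -0.44, -1.20 and -0.03, a mean of -0.55 ± 0.59 (SD, n = 3 pairs), and DERL1 had a mean of -0.10. SEL1L, the partner of SYVN1, had a mean of -0.23 ± 0.24, but a second tested probe gave 0.54. VCP, the ATPase that extracts proteins from the membrane, had ratios of 0.65, -0.30 and -0.96, a mean of -0.20 ± 0.81. EDEM1, which recognises trimmed sugar chains, had the highest ratio of the tested members, at 0.15 ± 0.73, with probes on either side of 0.

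The entry and glycosylation machinery had a median of -0.55, with all 12 genes below 0 on average and 1 past the threshold. The medians of this group were even across pairs, at -0.45 in pair 1, -0.58 in pair 2 and -0.39 in pair 3. Of its 12 genes, 10 were below 0 in pair 1, 11 in pair 2 and 8 in pair 3. Single genes could vary more, as SEC61G did from -1.37 in pair 1 to 0.42 in pair 3. DDOST, a non-catalytic subunit of the oligosaccharyltransferase that adds sugar chains, had a level of 10.55, 9.64 and 9.95 in long FSH cows, against 10.92, 11.38 and 11.13 in conventional FSH cows. The groups did not overlap, and the ratio was -1.10 ± 0.68 (SD, n = 3 pairs; limma's adjusted p 0.288), 2.14-fold. Without pair 2 it was -0.78 and no longer called, and the call was also lost with the deposited ratios. Its partner subunits RPN1 and RPN2 had ratios of -0.67 ± 0.59 and -0.33 ± 0.46, and only RPN1 had levels lower in every long FSH cow than in any conventional FSH cow.

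The translocon-associated protein complex, which helps chains into the translocon, has the subunits SSR1 to SSR4. SSR1 had a level of 13.26, 12.47 and 13.33 in long FSH cows, against 13.98, 13.81 and 13.67 in conventional FSH cows, with no overlap. Its ratio was -0.80 ± 0.51 (SD, n = 3 pairs; limma's adjusted p 0.348), and its other probes gave -0.75 and -0.43. With long FSH RNA in Cy5 the SSR1 ratio was -0.03, -1.65 and 0.28 in pairs 1 to 3. With it in Cy3 the ratio was -1.40, -1.02 and -0.95, so it depended on the dye in pairs 1 and 3. SSR2 had levels of 8.31, 8.19 and 8.63 in long FSH cows, against 8.69, 8.83 and 9.08 in conventional FSH cows, and a ratio of -0.49 ± 0.14. That SD hides a disagreement of the swapped arrays in pair 1. There SSR2 was at -1.31 with long FSH RNA in Cy5, but at 0.55 with it in Cy3. Its other probes gave -0.09 and -0.15, each above 0 in pair 1, and the mean of its 3 probes was -0.24, which missed the P limit. By their brightest probes both genes had an unadjusted P under the limit and missed the 2-fold limit, while SSR3 was at -0.08 ± 0.35. SSR4, which belongs to the wider list below, passed at -1.01 ± 0.65.

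The Sec61 channel subunits had ratios of -0.42 for SEC61A1, -0.19 for SEC61B and -0.61 for SEC61G. The signal peptidase subunits SPCS1, SPCS2 and SPCS3 had ratios of -0.37, -0.69 and -0.61. All 3 signal peptidase subunits and SEC61G were below 0 in pairs 1 and 2 and above 0 in pair 3, with pair 3 ratios of 0.22 to 0.46.

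The dye swap checks each ratio against a second hybridisation of the same RNA. Only 5 members were below 0 on all 6 arrays, and they were the 5 genes past the threshold, where 4.66% of all genes were below 0 on all arrays. Another 16 members were below 0 on 5 arrays. The 2 arrays of a pair gave the same sign for 28 members in pair 1, 34 in pair 2 and 25 in pair 3, of 41 each. Over all genes the share with the same sign was 64.3% in pair 1, 70.7% in pair 2 and 51.8% in pair 3. Array medians over the members were -0.34, -0.83 and -0.24 with long FSH RNA in Cy5 and -0.43, -0.89 and -0.23 with it in Cy3, so the lean below 0 held in either dye. When the 6 arrays were fitted with the cow pair as a block, 8 members passed the study's threshold, DNAJB9, DNAJB11 and HERPUD1 being added, and 5 passed an adjusted p of 0.05, namely HSPA5, HSP90B1, CALR, MANF and DDOST. Over all genes that fit called 235 lower and 445 higher and passed 485 of 9930 at the adjusted threshold, against 0 with pair means. It counts repeated hybridisations of the same extract as further observations.

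**Figure D4:**
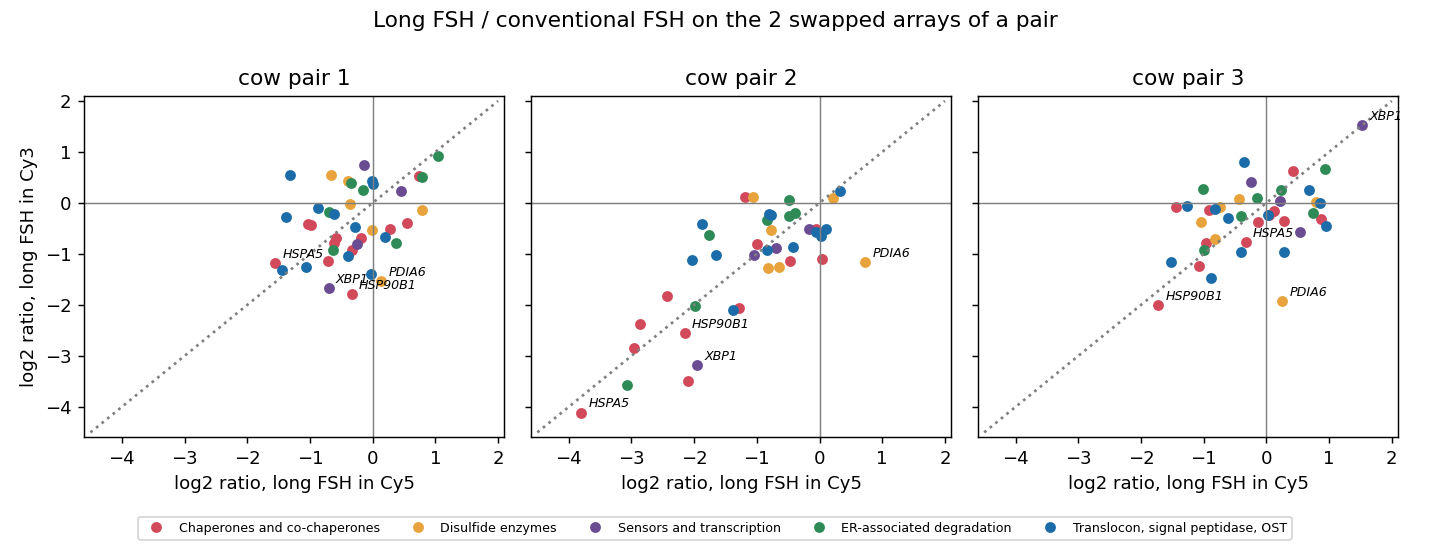
Log2 ratio (long FSH over conventional FSH) of the 41 tested genes on the array with long FSH RNA in Cy5 (x axis) and on the swapped array with it in Cy3 (y axis), a panel per cow pair, coloured by role; the dotted line marks equal ratios. Points of pair 2 stretch along the dotted line down to HSPA5 at -3.80 and -4.11, XBP1 moves from the lower left in pairs 1 and 2 to the upper right in pair 3, and PDIA6 lies off the line in each panel.

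Other genes of ER folding, entry and stress signalling had a median closer to 0. Of 97 further symbols listed for this comparison, 77 genes were tested, of which 2 were lower, 4 were higher and 71 did not pass the study's threshold. Over all genes 2.02% were lower and 3.39% higher. The median ratio of the 77 was -0.16, with 48 below 0, as were 4688 of all 9930 genes. In 11 of the 77 every long FSH cow was below every conventional FSH cow, and in 7 every long FSH cow was above. Over all 9930 genes these patterns held in 621 and 856. Of the further ER genes lower without overlap, CREB3L1, AUP1, TXNDC5 and BCAP31 reached the minimum of 3 readings only in conventional FSH cows. Of those higher without overlap, UGGT1 and CREB3 reached it only in long FSH cows. The sign of these ratios, and so the counts without overlap, is partly set by the filter. The difference between this list and the members was not tested.

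Among the higher genes, NUCB2 had an adjusted p equal to the smallest of any gene tested. It encodes nucleobindin 2, a calcium-binding protein of the secretory pathway. Its level was 12.98, 12.95 and 12.55 in long FSH cows, against 11.03, 11.18 and 10.55 in conventional FSH cows. The ratios of 1.95, 1.78 and 2.00 were nearly equal, with a mean of 1.91 ± 0.12 (SD, n = 3 pairs; limma's adjusted p 0.0767). QSOX1, a sulfhydryl oxidase that forms disulfide bonds in secreted proteins, had a level of 13.29, 12.93 and 13.58 in long FSH cows, against 10.85, 10.88 and 12.73 in conventional FSH cows. Its ratio was 1.78 ± 0.82, in contrast to the disulfide enzymes above, which had none past the threshold by their brightest probes.

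CASP4, an inflammatory caspase that in human cells has been tied to ER stress, had levels of 10.18, 8.81 and 11.23 in long FSH cows, against 8.35, 7.99 and 9.05 in conventional FSH cows. The groups overlapped, the ratio was 1.61 ± 0.71 (SD, n = 3 pairs; limma's adjusted p 0.172), and its other probes gave 1.26 and 1.32. RCN2, a calcium-binding reticulocalbin of the ER, was higher at 1.03 ± 0.57. The lower genes were SSR4 and MAP3K5, a stress kinase that in mammals acts downstream of ERN1, at -1.06 ± 0.74. RCN2, SSR4 and MAP3K5 each lost their call in 6 of 14 alternatives, while NUCB2, QSOX1 and CASP4 kept theirs in all 14.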

How the data were processed

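Granulosa cell RNA of 3 long FSH and 3 conventional FSH cows was compared on 6 two-colour EmbryoGENE bovine arrays. The authors deposited scanner intensity values (median foreground and local background per spot and dye) and a table of processed log2 ratios, the latter made by background subtraction, loess and quantile normalization. In the deposited log2 table, each column tracked the swapped array of the same pair rather than the array in its name (r = 0.842 to 0.905, against -0.387 to -0.693 for the named array), so it served as an alternative only and was turned by the array it matched.

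Here local background was taken off the foreground, with 0.5 in place of any result not above 0, loess was run within arrays with control spots at weight 0, and quantile normalization of mean intensities between arrays left the ratios unchanged (R 4.3.3, limma 3.58.1). Median foreground was 127 to 220 and median background 19 to 49 per array and dye, and 0 spots were saturated. The number of arrays and cows limits the precision. A probe was tested where its signal exceeded the mean plus 2 SD of 153 negative control spots in 3 or more of a group's 6 readings, which left 23480 of 43794 probes. Symbols came from the array annotation with 1644 renamed through RefSeq. XBP1 was listed as XBPP1, HYOU1 as ORP150 and CANX as canx. Each gene was represented by its brightest tested probe. The 2 arrays of a pair were averaged and limma was fitted to 3 pair means. The cows of a pair shared arrays, and across probes they deviated together from their groups (r = 0.153 to 0.260, and no higher than -0.0131 between pairs). The deviations of a group's 3 cows sum to 0, which pushes the values between pairs below 0, so these are not a separate check. Whether the shared arrays or the cows gave the positive r was not tested. The script was tested on simulated data.

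The members, role groups and further ER genes were chosen with earlier results of these data known, so lists have counts and medians and no test. The text names the best-known members of each role, every member past the study's threshold, the 3 members of each role with the smallest p and further ER genes past the threshold, and gives the remaining members briefly. Alternatives were 2 other background corrections, 2 other normalizations, 2 other filters, probe means, the arrays with a replicate block, no pairing, the deposited table, limma's trend and robust options, and leaving out each pair. No sequences were used here, and the planned promoter search was not run.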

Additional observations from a re-analysis of the deposited data

How the results depend on the processing

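The count of 5 members lower at the study's threshold became 8 with the 6 arrays fitted with the cow pair as a replicate block and 2 with the deposited table (CALR and HSP90B1), and was 1 to 13 when a pair was left out. Members past the adjusted threshold numbered 5 with the replicate block and 0 in the other alternatives. Over all genes, 485 of 9930 passed with the replicate block, 31 without pair 2 and 120 without pair 3, and 34 of 15213 passed without a filter. Without pairing, 4 members were called. No member passed as higher in any alternative. The median of the degradation genes was -0.60 to -0.16 and that of the translocon, signal peptidase and oligosaccharyltransferase genes -0.59 to -0.44 when a pair was left out. The 2 further ER genes called lower became 1 with normexp background correction, 0 without background subtraction, 1 without pairing, 0 with the deposited table, 0 with limma's trend and robust options, and 1 to 8 when a pair was left out. The median over the members ranged from -0.57 to -0.26 over the 14 alternatives and that over the chaperones from -1.20 to -0.29. Over all genes, limma's trend and robust options gave 170 lower and 82 higher genes, in place of 201 and 337, and the deposited log2 ratios gave 138 lower and 186 higher.

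The causes of these changes were not tested. With 3 pairs, intervals of single genes span several log2 units where pairs disagree, as in XBP1. The direction of all ratios rests on the design text. Of the tested members, 7 were not above background in every reading.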
